A study of Mus musculus with 3 samples.

Results

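The astrocyte identity genes described here are Gfap, Aqp4, Gja1, S100b, Glul and Vim, a set of 6 genes commonly used to recognise astrocytes. Their members were found by taking every probe set that the platform annotation assigns to exactly 1 gene and keeping those whose gene is in the set. A probe set is the group of short oligonucleotides on an Affymetrix-type array that together give 1 signal for a transcript. This gave 10 probe sets of 12488 on the array, and 6 genes of the 8251 with a probe set of their own. Of the 6 genes, 0 were absent, and 0 probe sets shared between several genes named a member. Gfap, Aqp4, Gja1 and Glul had 2 probe sets each, and S100b and Vim had 1 each.

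The RNA came from hippocampal CA1 tissue of C57BL/6J mice, an inbred strain, which were young males with no transgene named in the labels. All animals went through contextual fear conditioning, in which a new place is paired with a foot shock. Each of 3 shocks (1 s, 0.5 mA) followed 2 min in the context, and the animals returned home 1 min after the final shock and gave RNA 6 h after it. The labels number 3 arrays of this single condition and include no untreated group, so no effect of training was estimated. Whether RNA of 1 animal or of several went onto an array is not stated, so differences between arrays may come from animals, dissection or technique. In whole tissue, more astrocytes and more RNA per astrocyte cannot be told apart.

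Astrocytes are the glial cells that enclose synapses and cover blood vessels with endfeet. Gfap and Vim encode the intermediate filament proteins of their cytoskeleton, and Gfap is the classic marker of reactive astrocytes. Aqp4 encodes the water channel concentrated in endfeet, and Gja1 encodes connexin 43, which joins astrocytes through gap junctions. Glul encodes glutamine synthetase, which turns synaptic glutamate into glutamine, and S100b encodes a calcium-binding protein. Hippocampal astrocytes are known for strong Gfap staining, while Vim in the adult brain is also a gene of vessels, meninges and ependyma.

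Gfap, Aqp4, Gja1, S100b and Glul were detected on every array by the measure available, and Vim was not. No detection calls were given, so a signal above 175, the median of all deposited values, was called above threshold. At their brightest probe set 5 of the 6 genes lay above it on all 3 arrays, where 52.9% of all genes did. By probe set the count was 8 of 10, against 45.6% of all single-gene probe sets. The other 2 were the Vim probe set, above threshold on 0 arrays, and the fainter Aqp4 probe set, above threshold on 1. A signal under the threshold is weak, which is not the same as no transcript.

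**Figure D1:**
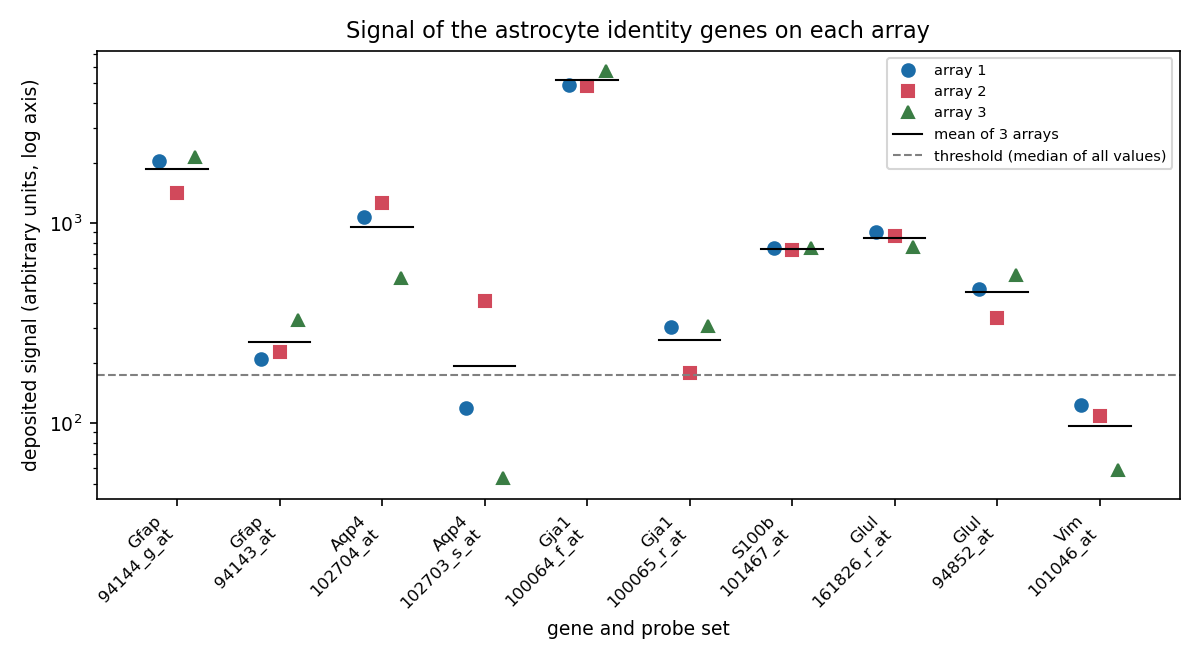
Deposited signal of the 10 member probe sets (x axis, grouped by gene) on arrays 1, 2 and 3 (points, log axis in arbitrary units), with the mean of 3 arrays as a black line and the threshold of 175 dashed. The Vim points all lie under the threshold, and the fainter Aqp4 probe set 102703_s_at crosses it on array 2 alone.

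The members also differ in the DNA just before their start sites. RefSeq promoter windows of build GRCm38.p6 were matched by symbol for 5 of the 6 members, Gfap, Gja1, S100b, Glul and Vim, and the 250 bases before the annotated start were searched on both strands. CCAAT, the core of the motif bound by the factor NF-Y, occurred in 3 of the 5 windows, those of Glul, S100b and Vim, and in 33.8% of 32851 promoter windows of that length. TATAAA, the letters of the TATA box, occurred in the Vim window and in 12.4% of all windows. GGGCGG, a GC box, occurred in the Glul window and in 32.7% of all, and TGANTCA, the AP-1 motif, occurred in the Gja1 window and in 6.75% of all. TTCNNNGAA, the motif of STAT factors, occurred in 0 of the 5 windows and in 7.02% of all. No searched motif contains another. The motifs were chosen after the sequences were seen, so the member counts are no test against these shares. A match is a description of the sequence, not a bound site.

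The 3 windows that hold CCAAT are shown because this was the motif most members shared, with CCAAT or its reverse complement ATTGG in capitals. Each is given 5′ to 3′ on the strand of the gene, and the last base is the base before the annotated start. Glul lies at chr1:153899679-153899928 on the plus strand, S100b at chr10:76253586-76253835 on the plus strand and Vim at chr2:13574061-13574310 on the plus strand.
Glul: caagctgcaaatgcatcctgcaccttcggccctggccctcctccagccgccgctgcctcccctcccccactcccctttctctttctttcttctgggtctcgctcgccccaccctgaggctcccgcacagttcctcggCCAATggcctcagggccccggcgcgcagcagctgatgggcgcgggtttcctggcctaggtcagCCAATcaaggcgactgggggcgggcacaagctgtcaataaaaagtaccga
S100b: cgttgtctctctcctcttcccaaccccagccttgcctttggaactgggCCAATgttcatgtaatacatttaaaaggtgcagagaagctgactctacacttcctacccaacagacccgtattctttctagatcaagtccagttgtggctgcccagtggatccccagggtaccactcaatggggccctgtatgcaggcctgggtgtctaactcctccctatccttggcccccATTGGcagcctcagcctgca
Vim: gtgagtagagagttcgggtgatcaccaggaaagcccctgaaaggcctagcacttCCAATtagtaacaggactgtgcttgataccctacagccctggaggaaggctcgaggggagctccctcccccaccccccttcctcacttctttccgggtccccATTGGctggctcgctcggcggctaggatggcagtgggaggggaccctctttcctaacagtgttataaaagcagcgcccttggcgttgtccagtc
Each of the 3 windows held 2 matches. In Glul both read CCAAT on the gene's strand and began 113 and 50 bases before the start. S100b and Vim each held a forward match, 202 and 196 bases before the start, and a reverse match nearer to it, 20 and 94 bases before. Of these genes Glul and S100b were above the threshold on every array and Vim was under it, and binding to these windows was not measured.

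Gfap was far above the threshold at its brighter probe set and nearer to it at the other. Probe set 94144_g_at read 2049.6, 1419.9 and 2144 on arrays 1, 2 and 3, a mean of 1871 ± 394 (SD, n = 3 arrays). Arrays 1 and 3 lay close together and array 2 was lowest. The fainter probe set 94143_at, designed from the same sequence record, read 208.8, 227.8 and 326.6, a mean of 254 ± 63.2. Both probe sets were highest on array 3, but the lowest was array 2 for the first and array 1 for the second. The log2 range between the highest and lowest array was 0.64 and 0.69, so the pair varied by a similar amount while placing arrays 1 and 2 in opposite order. The suffix g marks a probe set designed for a group of related sequences, so the brighter signal can hold more than 1 transcript form.

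Vim, the partner of Gfap in astrocyte filaments, read 122.8, 109.4 and 58.4, a mean of 96.9 ± 34.0 (SD, n = 3). All 3 arrays were under the threshold, with array 3 lowest. Its signal lay above the highest of 15 control probe sets for bacterial transcripts on array 1, where that control reached 54.1, and on array 3, where it reached 55.6. On array 2 that control reached 115, above Vim. Meningeal, vascular and choroid plexus cells also express Vim. Of their marker lists, 6 of 9 meningeal and fibroblast genes, 2 of 9 endothelial and pericyte genes and 2 of 6 choroid plexus and ependyma genes were above threshold on all arrays, where 52.9% of all genes were, and 0 of these genes had a signal of 0. The summed signal was 16418, 11131 and 10719 for the meningeal list and 1318, 1408 and 1636.5 for the endothelial list on arrays 1, 2 and 3, and their part in the Vim signal was not tested.

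Aqp4 varied most between the arrays among the measured member genes, and both of its probe sets did so in the same order. Probe set 102704_at read 1072.1, 1264.3 and 530.7, a mean of 956 ± 380.4 (SD, n = 3). Probe set 102703_s_at, designed from a different sequence record, read 119.9, 408 and 53.2, a mean of 194 ± 189. Its suffix s marks it as not of plain design. In both probe sets, array 2 was highest and array 3 lowest. The highest array was 2.38-fold above the lowest at the first probe set. At the second, arrays 1 and 3 were under the threshold, and the 53.2 of array 3 was not above 55.6, the highest bacterial control on that array. The 408 of array 2 was 7.34-fold above that 55.6, but the highest bacterial control on array 2 was 115. On the log2 scale the range at the first probe set was 1.20. At the second it was 2.89 as measured, which rests on the weak signal of array 3.

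These were the 2 of 9 measured member probe sets whose arrays lay over 2-fold apart, where 12.1% of 6218 measured probe sets did. A probe set is called measured when its mean is above the threshold. Probe set 102703_s_at met this only through its 408 on array 2. Its range and its variance test use that same value, so they add no support. Excess spread for a given signal level was tested with limma, which sets each variance against a trend fitted over all measured probe sets. The SD of log2 signal was 0.64 at 102704_at, where the trend lay at 0.26, and 1.46 at 102703_s_at, where the trend lay at 0.72. The limma p was 0.031 at the first, 0.90 after adjustment over all measured probe sets, and 0.069 at the second, 0.96 after adjustment. Neither passed the threshold of 0.05. Without array 3 the log2 range at 102704_at was 0.24, and without array 2 it was 0.97.

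Other measures also differed between the arrays, some in the order of Aqp4 and some not. The 3′ signal divided by the 5′ signal of the control probe sets gave 3.99, 1.21 and 3.94 for Gapdh. For Actb it gave 2.57, 1.86 and 3.50, so both ratios were lowest on array 2, where Aqp4 was highest. The summed signal of the 6 choroid plexus and ependyma markers with a probe set was 3879, 7580.2 and 2360.1, highest on array 2 and lowest on array 3. Within that list Ttr, the transthyretin gene, read 1333.5, 4256.7 and 94.2, and Foxj1, a factor of ciliated cells, read 313.3, 507.6 and 166. Ttr passed the limma variance test, with an adjusted p of 0.049, the 1 call among 6218 measured probe sets. Kl, the klotho gene of the same list, did not share the order, at 251.9, 366.1 and 351.1, lowest on array 1. Aqp1, the water channel of choroid plexus, was under the threshold at 160.4, 55.2 and 127 and lowest on array 2. Its other probe set read 11.9, 18.6 and 7.5, far under the threshold but in the Aqp4 order. Igf2 and Folr1 of the same list also shared that order at their brightest probe sets. Igf2 read 1765.2, 2198.3 and 1581.9, and Folr1 read 54.5, 196.3 and 39.9, above the threshold on array 2 alone. Their fainter probe sets, under the threshold on every array, did not share it. The part of these in the Aqp4 signal was not tested.

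Gja1 gave a high and even signal at its brighter probe set. Probe set 100064_f_at read 4899, 4849.5 and 5751, a mean of 5166.5 ± 507 (SD, n = 3). Arrays 1 and 2 were nearly equal and array 3 was highest. Probe set 100065_r_at, from the same sequence record, read 303.3, 177.6 and 304.9, a mean of 262 ± 73.0. It placed the arrays in the same order, with array 2 lowest and just above the threshold. The log2 range was 0.30 at the first and 0.83 at the second. The suffix f marks probes that can match members of a sequence family and r marks a set for which a design rule was relaxed, so neither is a plain design.

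S100b had the smallest log2 range of the members in the reported setting. Its only probe set, 101467_at, read 749.9, 734.8 and 755.7, a mean of 747 ± 10.8 (SD, n = 3). The 3 arrays spanned a log2 range of 0.090, and the SD of log2 signal was 0.045, where the limma trend at this level lay at 0.26. The range was 0.040 without scaling or with cyclic loess, and 0.032 without array 3, where that of Gja1 was smaller, at 0.017. The median log2 range of all 4876 measured genes was 0.47.

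Glul was above threshold at both probe sets, which disagreed on the order of the arrays. Probe set 161826_r_at read 903.2, 863.5 and 763.4, a mean of 843 ± 72.0 (SD, n = 3), highest on array 1 and lowest on array 3. Probe set 94852_at read 466.4, 337.5 and 553.6, a mean of 452.5 ± 109, highest on array 3 and lowest on array 2. The log2 ranges were 0.20 and 0.76. No array can therefore be called high or low for Glul, and a probe set of plain design gave the larger spread.

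**Figure D2:**
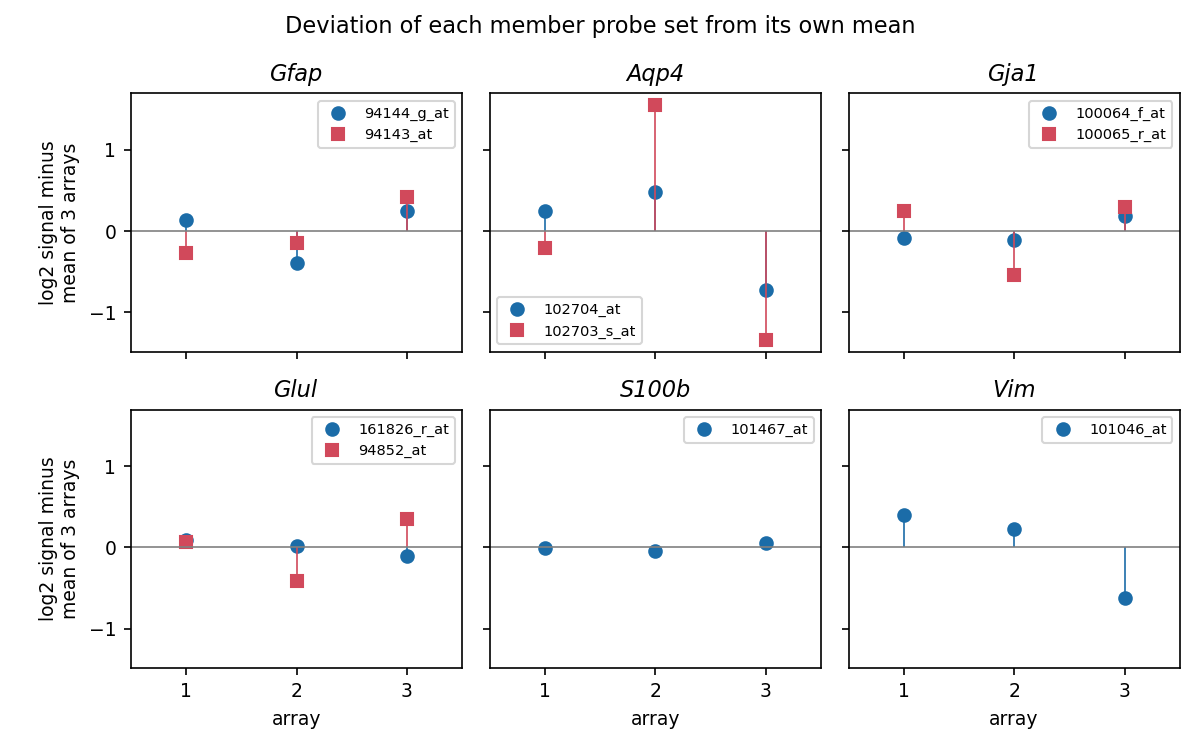
Log2 signal of each member probe set minus its own mean over the 3 arrays (y axis) by array (x axis), in a panel for each gene, with circles for the brighter probe set and squares for the fainter. Both Aqp4 probe sets are highest on array 2 and lowest on array 3, whereas the Glul pair points in opposite directions on array 3 and S100b stays near 0.

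Set side by side, the members did not follow a common order over the arrays. Of the 4 genes with 2 probe sets, 2 (Aqp4 and Gja1) kept the order of the arrays between them and 2 (Gfap and Glul) did not. At the brightest probe set the highest array was array 3 for Gfap, Gja1 and S100b, array 2 for Aqp4 and array 1 for Glul and Vim. The lowest was array 2 for Gfap, Gja1 and S100b and array 3 for Aqp4, Glul and Vim. The median log2 shift of the 5 measured genes, each array against the mean of the others, was 0.13, -0.063 and 0.072 on arrays 1, 2 and 3. Over all 4876 measured genes these medians were 0.0039, -0.065 and 0.060. The member shift on array 2 was -0.29 when the probe sets of each gene were averaged. That on array 3 was 0.30 over probe sets of plain suffix, and -0.023 and -0.044 with the threshold lowered to the 25th percentile or removed. That on array 1 was -0.057 without array 2.

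By the limma variance test 0 of the 9 measured member probe sets passed at an adjusted p of 0.05, and 1, the brighter Aqp4 probe set, had an unadjusted p under 0.05. Over all measured probe sets 0.0161% passed and 5.21% had an unadjusted p under 0.05. The SD lay above the trend for 6 of the 9, and for 41.5% of all measured probe sets. The 9 include 102703_s_at of Aqp4, which is measured only through array 2, where it is high. At the brightest probe set 1 of 5 measured genes had arrays over 2-fold apart, where 10.2% of measured genes did. The test has 3 arrays to work with, and their number limits its precision.

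**Figure D3:**
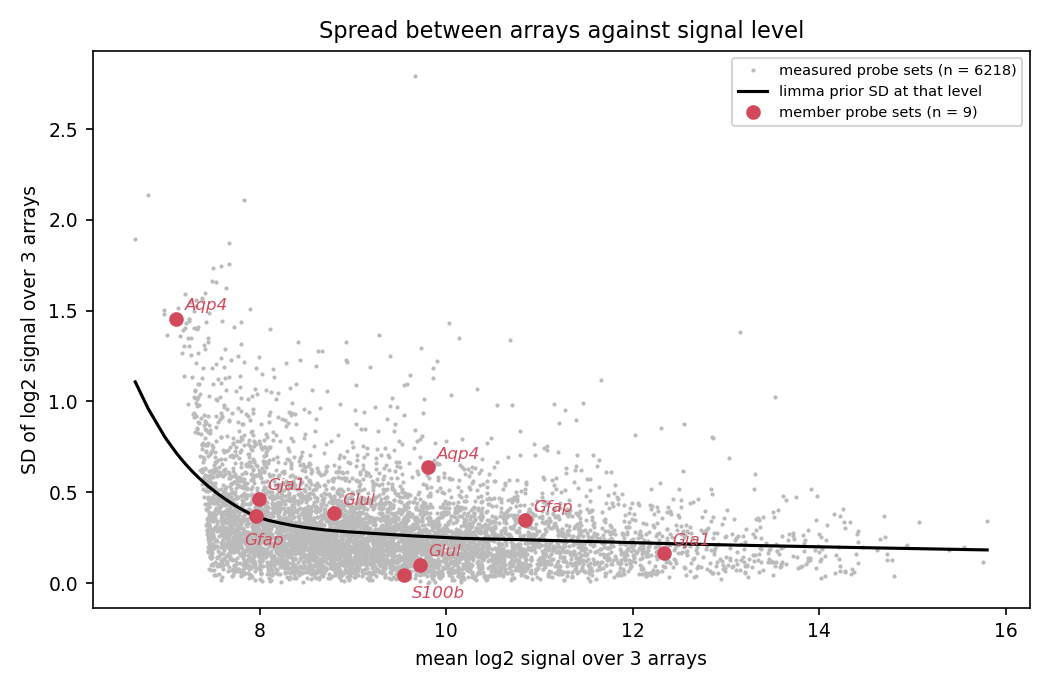
SD of log2 signal over the 3 arrays (y axis) against mean log2 signal (x axis) for 6218 measured probe sets in grey, the limma trend as a line and the 9 measured member probe sets in red. Both Aqp4 points lie above the trend, S100b lies near the bottom of the cloud, and Vim, under the threshold, is not shown.

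Most other astrocyte genes on the array were also above threshold. Of 34 further astrocyte genes 23 had a probe set, and 18 of the 23 were above threshold on all arrays, where 52.9% of all genes were. Slc1a2, the main glutamate transporter of astrocytes, read 360.9, 474 and 281.6. Aldoc, the aldolase typical of astrocytes, read 12168.6, 11466 and 10028.4. Apoe, the apolipoprotein they secrete, read 20985.1, 26794.3 and 17963.1 at its brightest probe set. The other Apoe probe set read 49.5, 56.4 and 16, under the threshold on every array. At their brightest probe sets all 3 genes were lowest on array 3, as Aqp4 was. On that array 10 of the 20 measured genes of the list lay above the other arrays' mean, with a median shift of -0.045, where 56.5% of all measured genes did, with a median of 0.060. The largest log2 range among the 20 measured genes, 0.96, belonged to Btbd17, at 264.2, 282.2 and 139.7. By limma 0 of the 20 passed the variance test, and 0 had an unadjusted p under 0.05.

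Genes known from reactive astrocytes were mostly under the threshold. Of 31 listed, 22 had a probe set and 7 of the 22 were above threshold on all arrays, where 52.9% of all genes were. The other 15 were above it on 0 arrays. Serpina3n, a serine protease inhibitor, read 1345.3, 1815.7 and 1419.7, and S1pr3, a sphingosine phosphate receptor, read 531.7, 427.9 and 496.1. Lcn2, the lipocalin 2 gene, read 260.7, 186.5 and 227.5 at its brightest probe set and 2.2, 55.3 and 7.7 at the other, so its detection depends on the probe set. Cd14, with the largest log2 range among the 7 measured genes at 0.62, read 443.5, 439.3 and 654.5. By limma 0 of the 7 measured genes passed and 0 had an unadjusted p under 0.05. The median shift was 0.15, -0.29 and 0.092 on arrays 1, 2 and 3, lowest on the array where the brighter Gfap probe set was also lowest.

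Among the other intermediate filament and lamin genes, 6 of the 10 represented on the array passed the threshold on all arrays, where 52.9% of all genes did. These were the neuronal filament genes Nefl, Nefm, Nefh and Ina, the linker gene Plec and the lamin gene Lmna. Nes, the filament gene of neural progenitors and of some reactive astrocytes, read 69.6, 181.7 and 181.6 at its brightest probe set. These values were above threshold on arrays 2 and 3 by a small margin. The other Nes probe set read 39.5, 23.9 and 25, under the threshold on every array. Des, the muscle filament gene, was under the threshold at 134 ± 9.29. Plec, which ties filaments to membranes, gave 339 ± 71.9 and was highest on array 3, at 420.6. Lmnb1, a nuclear lamin gene, had the largest log2 range among the measured genes of the list, 1.76, at 201.3, 76.8 and 252.1, with array 2 under the threshold. By limma 0 of the 7 measured genes passed and 0 had an unadjusted p under 0.05.

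Of 10 connexin genes other than Gja1 on the array, Gjb6 alone was above threshold on all arrays, where 52.9% of all genes were. Gjb6 encodes connexin 30, the other main astrocyte connexin, and read 470.7, 467.6 and 342.6. Its second probe set read 400, 252.8 and 291.5, which puts array 2 lowest instead of array 3, and the third probe set read 93.9, 12.1 and 66.1, under the threshold on every array. Gjb2, the connexin 26 gene, read 246, 74.2 and 183.6, and Gjb1, the connexin 32 gene of oligodendrocytes, was under the threshold at 86.2 ± 5.05. Among aquaporin genes other than Aqp4, 0 of the 5 represented passed the threshold on all arrays, where 52.9% of all genes did. Aqp2, a kidney water channel, gave 49.6 ± 3.02, and Aqp7, a channel of fat tissue, read 63.1, 41.7 and 146.

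Of the genes that anchor Aqp4 at endfeet 5 of 10 on the array were above threshold on every array, near the 52.9% of all genes. Dag1, which encodes dystroglycan, read 1749.4, 1620.3 and 1851, with array 2 lowest and array 3 highest. Dtna, which encodes alpha-dystrobrevin, read 449.3, 538.1 and 253.4, with array 2 highest and array 3 lowest, the order seen for Aqp4. Its log2 range was 1.04 and its limma p was 0.10, 0.97 after adjustment. The second Dtna probe set read 40, 192.9 and 145.6, with array 1 lowest. Dmd, the dystrophin gene, was under the threshold at 69.2 ± 35.3. Over the 6 measured genes the median shift was 0.030, -0.052 and -0.014, and by limma 0 passed and 0 had an unadjusted p under 0.05.

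Around Glul, 5 of 7 represented genes of the glutamate and glutamine cycle passed the threshold on all arrays, where 52.9% of all genes did. Glud1, which encodes glutamate dehydrogenase, read 2109.2, 1685.9 and 1991.7 at its brightest probe set. The other Glud1 probe set read 54.2, 29 and 138.1, under the threshold on every array. Slc1a1, the neuronal glutamate transporter gene, read 401.3, 737.3 and 479.7, highest on array 2. By limma 0 of the 5 measured genes passed and 0 had an unadjusted p under 0.05. Among the S100 genes other than S100b, 5 of 10 were above threshold on all arrays, near the 52.9% of all genes. S100a1, whose protein can pair with S100b, read 534, 1193 and 633.5 at its brightest probe set and was highest on array 2, where S100b was lowest. Its limma p was 0.044, 0.91 after adjustment, the only unadjusted p under 0.05 among 5 measured genes, of which 0 passed. At its other probe sets S100a1 read 69.2, 81.9 and 66.6, and 22.8, 17 and 62.7, under the threshold on every array. The former was highest on array 2 and the latter was lowest there. S100a3 gave 270 ± 58.4 at its brightest probe set and read 5.5, 11.5 and 7.2 at the other. S100a4, a gene of fibroblasts and of some white matter astrocytes, was under the threshold at 111 ± 51.4.

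**Figure D4:**
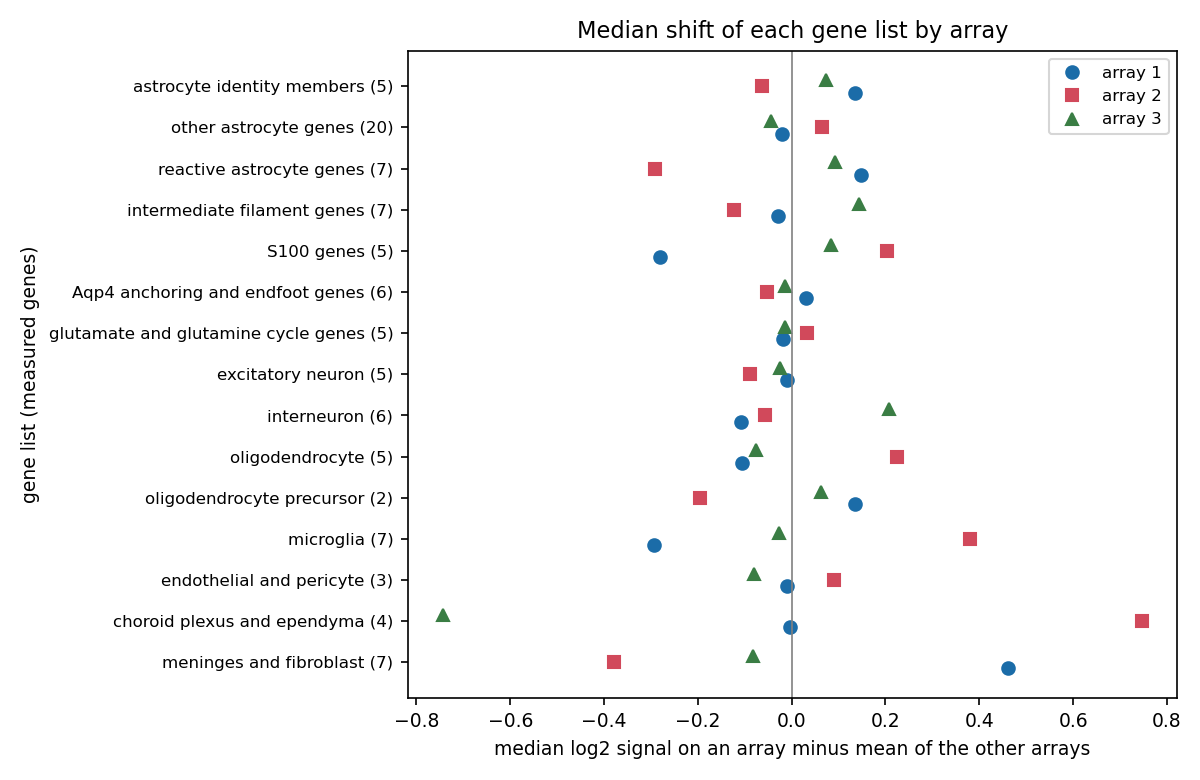
Median log2 signal on an array minus the mean of the other arrays (x axis) for each gene list with at least 2 measured genes (y axis, number of measured genes in brackets), with a point for each array. The astrocyte identity genes lie between -0.063 and 0.13, and the choroid plexus and ependyma list spans -0.74 to 0.75.

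Markers of other cell types were counted in the same way, where 52.9% of all genes passed. Of the excitatory neuron markers 5 of 7 represented genes passed the threshold on all arrays, of interneuron markers 6 of 8, of oligodendrocyte markers 5 of 7, of oligodendrocyte precursor markers 2 of 2 and of microglial markers 7 of 10, and 0 of these genes had a signal of 0. Microglial markers were shifted by -0.29, 0.38 and -0.028 and oligodendrocyte markers by -0.11, 0.22 and -0.076 on arrays 1, 2 and 3. Both lists were highest on array 2, where the brightest probe sets of Gfap, Gja1 and S100b were lowest. The fainter Gfap probe set was lowest on array 1, and S100b spanned a log2 range of 0.090. The brighter Gja1 probe set was nearly equal on arrays 1 and 2, at 4899 and 4849.5. Over all measured genes the median shift on array 2 was -0.065, with 44.5% of genes up. Interneuron markers were shifted by -0.11, -0.057 and 0.21. Of their 6 measured genes 5 were up on array 3, where Gfap, Gja1 and S100b were highest. On that array 56.5% of all measured genes were up, with a median shift of 0.060. Meningeal and fibroblast markers were shifted by 0.46, -0.38 and -0.083. The part of these lists in the member signals was not tested.

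The genes whose pattern over the 3 arrays lay nearest to that of Aqp4 were not astrocyte genes of the lists used here. By Euclidean distance between mean-centred log2 signals they were Twf2 at 0.049, Gria1 at 0.051, Arhgap5 at 0.082, Rap2b at 0.091 and Copz2 at 0.097. Twf2, the twinfilin 2 gene, read 961.1, 1173.6 and 498.3, and Gria1, an AMPA receptor gene of neurons, read 7191.5, 8130.1 and 3565.1. Within a distance of 0.3 lay 53 of 4875 other measured genes. With 3 arrays a pattern has few degrees of freedom, and this likeness is a description.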

How the data were processed

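Total RNA of CA1 was measured on 3 arrays of 1 group. The authors deposited linear intensities, 1 for each probe set on each array; the program, its version and its scaling are not stated in the labels or the table. The median intensity was 171 to 177 per array, and 0 columns of other samples were present. The trimmed mean, which leaves out the highest and lowest values, was 500.3 on each array. The deposited signals therefore already shared a common trimmed mean. The platform annotation gave 1 gene for 10833 of 12422 probe sets that are not controls, several for 396 and none for 1193. Levels are the deposited signals. For spread, arrays were scaled to a common median over measured probe sets (mean above 175, the median of all values), floored at 47.5, the 25th percentile, and log2-transformed. The variance test used limma 3.58.1 in R 4.3.3 (robust intensity-dependent prior, Benjamini-Hochberg over 6218 measured probe sets) and was tested on simulated data. A gene is represented by its brightest probe set. Genes named are all members, the first 3 of each of 8 related lists and the gene of largest range in each, the 5 nearest to the most variable member, and markers of 8 lists where they moved with a result. Genes of second probe sets and of short counts were named after their values were seen. The members and lists were chosen with earlier results of these data known. The alternatives were other scalings, floors, thresholds, priors, probe-set choices and leaving out each array, and the motifs were chosen after the sequences were seen.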

Additional observations from a re-analysis of the deposited data

How the results depend on the processing

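The count of members above threshold was 5 of 6 in the reported setting and stayed between 4 and 6 under 10 alternatives, with 6 at the 25th percentile and 4 at the 75th. Over probe sets of plain suffix it was 4 of 5, since Gja1 has none. Under 14 alternatives 0 members passed the limma variance test, and the adjusted p of Aqp4 ranged from 0.69 to 1. Its unadjusted p was under 0.05 in 12 of the 14, the exceptions being no threshold, at 0.26, and leaving out array 3, at 0.56. The median member shift on array 2 moved from -0.063 to -0.29 with each gene's probe sets averaged, and that on array 3 from 0.072 to 0.30 over plain suffixes. Leaving out each array in turn, the shift ranged from -0.057 to 0.032 on array 1, from -0.091 to -0.032 on array 2 and from 0.057 to 0.091 on array 3. The mean signal of Gfap was 1063 with its probe sets averaged and 254 over plain suffixes. That of Aqp4 was 575 averaged, that of Gja1 was 2714 averaged, and that of Glul was 648 averaged and 452.5 over plain suffixes. Scaling the levels by array medians, chosen after seeing the data, moved no member's mean by more than its SD. The log2 range of Vim was 0.15 with the floor at the 40th percentile. No paired analysis was possible because the labels give 1 group. The number of arrays, and signals near background for Vim and the fainter Aqp4 probe set, limit these values. So does the difference between arrays in the 3′ to 5′ ratios of Gapdh and Actb, both lowest on array 2. The part of that difference in any order of the arrays was not tested.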
